A study of Mus musculus with 6 samples.

Results

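The epithelial keratins examined here were 8 genes, matched by gene symbol to 8 of the 36977 rows of the deposited table. Keratins 7, 8, 18, 19, 20 and 23, from Krt7 to Krt23, are keratins of simple (single-layered) epithelium, and keratins 5 and 14, Krt5 and Krt14, are those of the basal layer of squamous epithelium. They were measured by bulk RNA-seq of colonic tissue in 6 libraries, 3 from wild-type mice labelled DSS and DCA, written DSS+DCA below, and 3 from wild-type mice labelled DSS, with replicate numbers 1, 2 and 4 in each group. Both groups carried colitis induced with 2% dextran sodium sulfate (DSS) over 7 days, and the protocol, worded alike for every sample, then names an enema of DCA. DCA, deoxycholic acid, is a secondary bile acid that gut bacteria make. The sources used here do not give age, sex or strain, nor which enema the DSS group had. The labels name intestinal epithelial cells beside colonic tissue, while transcripts of muscle, nerve and immune cells were present as well. Whether each library came from its own mouse is not stated, and the p-values then measure only the spread between libraries, which may be technical.

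Keratins form the intermediate filaments of epithelial cells. A filament is built from pairs of a type I and a type II chain, so that each type II keratin (Krt5, Krt7, Krt8) needs a type I partner (Krt14, Krt18, Krt19, Krt20, Krt23). In the colon Krt8 is the main type II chain and pairs with Krt18, Krt19 and Krt20, of which Krt20 marks differentiated cells near the surface. Mice without Krt8 develop spontaneous colitis.

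Levels are given in FPKM, a fragment count divided by transcript length and library size, so that levels of different genes can be compared. The libraries differed in their makeup. Transcripts of the mitochondrial genome made up 30.5%, 47.6% and 46.7% of the summed FPKM in DSS+DCA replicates 1, 2 and 4, and 29.4% to 31.4% in the DSS libraries. Nuclear protein-coding genes held 46.0%, 20.9% and 24.2% of the sum in DSS+DCA replicates 1, 2 and 4, against 44.8% to 46.0% in DSS. Replicate 4 of DSS sat near the average of the other DSS libraries. Among 1116 abundant protein-coding genes (30 FPKM or more on average) it deviated from that average by a median of 0.048 on the log2 scale, whereas replicates 1 and 2 were 0.20 apart. In DSS+DCA the same deviation of replicate 4 was 0.32, and replicates 1 and 2 were 0.73 apart. Replicate 4 of DSS stood at 0.975 to 1.03 times the average of the other two for Krt7, Krt8, Krt18, Krt19 and Krt20, at 1.24 times for Krt23 and at 1.88 times for Krt14, and it listed Krt5 at 0. The labels do not say whether it is independent of them. If it were not, DSS would hold 2 independent libraries, and each n, SD and p printed for 3 DSS libraries would overstate the precision.

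Krt8, Krt18, Krt19 and Krt20 were abundant transcripts of the tissue, Krt7 and Krt23 were much lower, and the squamous keratins lay below 0.5 FPKM. All 6 simple keratins had lower mean FPKM in DSS+DCA than in DSS, by 1.31-fold for Krt23 to 2.1-fold for Krt19. Krt7, Krt8, Krt18 and Krt19 were lower in each DSS+DCA library than in any DSS library, while Krt20 and Krt23 overlapped between the groups. None passed an adjusted p under 0.05 with all 6 libraries in the fit. In a bulk tissue, fewer epithelial cells and less RNA per cell cannot be told apart. The makeup of a library also enters FPKM. After rescaling to nuclear protein-coding genes, the median log2 change of the 6 was -0.44 in place of -0.89. How much the makeup contributed was not tested.

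**Figure D1:**
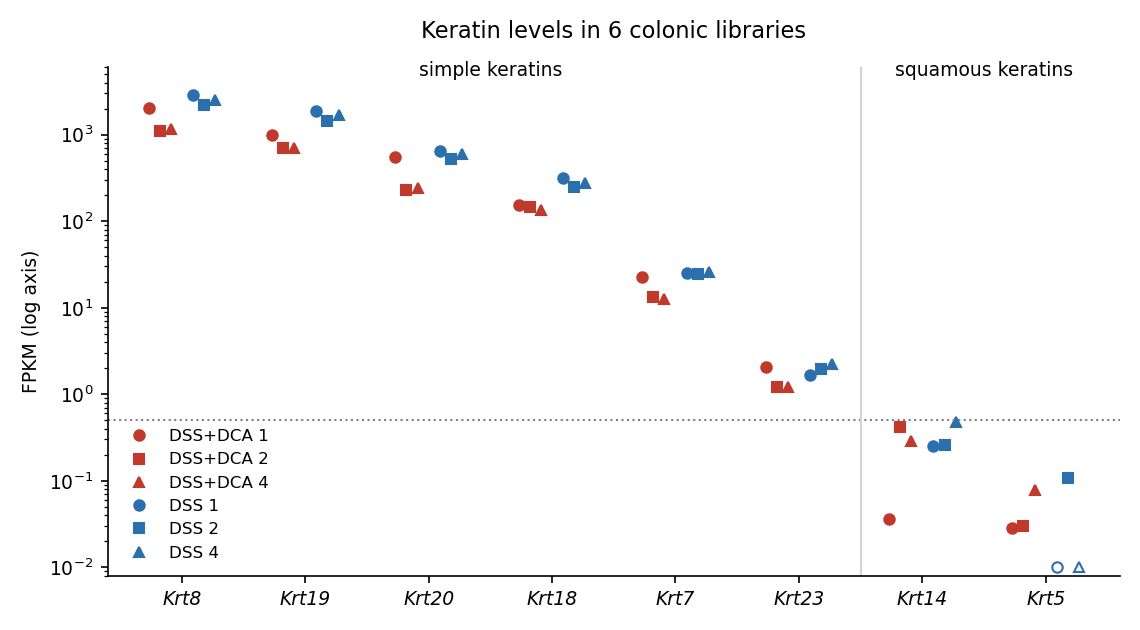
FPKM on a log axis for the 8 keratins, 1 point per library, with DSS+DCA libraries in red left of DSS libraries in blue. Points at the bottom with open symbols are listed at 0, and the dotted line marks 0.5 FPKM, the mean below which a gene was not tested. Krt8, Krt19, Krt20 and Krt18 sit between 136 and 2843 FPKM and both squamous keratins below 0.5 FPKM.

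Krt8, the main type II chain, had the highest level of the family. Replicates 1, 2 and 4 of DSS+DCA had 2040, 1094 and 1168 FPKM, and the same numbers of DSS had 2843, 2212 and 2527 FPKM. The groups did not overlap, but DSS+DCA replicate 1 lay close to the lowest DSS library and far above the other two of its group. The means were 1434 ± 526 FPKM in DSS+DCA and 2528 ± 315 FPKM in DSS (SD, n = 3 each). The fitted log2 change was -0.87 ± 0.31 (SE), with an adjusted p = 0.245 in limma over all 14611 genes tested. Krt8-ps, a processed pseudogene on chromosome 7 that shares its name with Krt8, was listed at 10.6, 3.27 and 4.04 FPKM in DSS+DCA and 13.8, 10.4 and 8.69 FPKM in DSS. That was 0.299% to 0.520% of Krt8 in DSS+DCA and 0.344% to 0.485% in DSS. Reads may have been split between the genes, so the level of Krt8-ps is uncertain as a whole, and that of Krt8 by about this share.

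Krt18, the classical type I partner of Krt8, was lower in the DSS+DCA libraries, with little spread among them in FPKM. Set against other epithelial markers, as given below, its DSS+DCA libraries were widely spread. Its DSS+DCA libraries, in the order 1, 2, 4, had 156, 147 and 136 FPKM, and the DSS libraries 315, 251 and 276 FPKM. The groups did not overlap, and the DSS+DCA values were close together. Means were 146 ± 9.84 FPKM in DSS+DCA and 280.5 ± 32.3 FPKM in DSS, 1.92-fold lower in DSS+DCA. Without rescaling, Krt18 had the smallest p of the family in limma (unadjusted p = 0.00181, adjusted p = 0.104). Its log2 change was -0.93 ± 0.19 (SE). After rescaling to nuclear protein-coding genes, the unadjusted p in limma was 0.0475 for Krt18 and 0.0110 for Krt19. With TMM-style or quantile scaling the p of Krt19 was also the smaller.

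Krt19, a short type I keratin with almost no tail domain and the most abundant type I chain here, had the largest fold difference. Its levels were 985, 707 and 695 FPKM in the DSS+DCA libraries and 1864, 1457 and 1684 FPKM in the DSS libraries. The highest DSS+DCA library stayed below the lowest DSS library by more than the range of the DSS+DCA values. The log2 change was -1.08 ± 0.25 (SE, adjusted p = 0.121, limma). In the authors' deposited table Krt19 was the only one of the 8 marked significant, with a fold of 0.477 for DSS+DCA over DSS and a q-value of 0.00268. Krt18 had a q-value of 0.0285 in the authors' deposited table and was not marked. Genes marked significant there had absolute log2 folds of at least 1.00, and the log2 fold of Krt18 was -0.94. The authors' deposited table marked 0.99% of its genes as significant and lower.

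Krt20, the keratin of differentiated surface cells, split the DSS+DCA libraries. Its levels were 547, 232 and 242 FPKM in the DSS+DCA libraries, and 657, 523 and 602 FPKM in the DSS libraries. Replicate 1 of DSS+DCA lay inside the DSS range, and the other two lay far below it. The fitted difference was -0.91 ± 0.36 log2 units (SE, adjusted p = 0.28, limma).

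The upstream sequences of Krt8, Krt18 and Krt20 are shown because Krt8 and Krt20 parted from Krt18 in DSS+DCA replicate 1, although Krt8 and Krt18 are neighbours. By GENCODE M21 (GRCm38), Krt8 lies on chromosome 15 from 101996698 to 102004482 on the minus strand and Krt18 from 102028180 to 102032027 on the plus strand. Their starts are 23698 bases apart and face away from each other. Krt7 (chromosome 15, 101411043 to 101430313) and Krt5 (101707070 to 101712898) lie in the same type II cluster, and Krt18 is a type I gene placed there. The other type I genes lie on chromosome 11, with Krt20 from 99428403 to 99438150, Krt23 from 99477974 to 99493137, Krt19 from 100140810 to 100148665 and Krt14 from 100203162 to 100207548. No source used here states the authors' build, so the positions are those of the annotation, joined by gene identifier. The 250 bases before the RefSeq start (GRCm38.p6) are given for Krt8 at chr15:102004343-102004592 (minus strand), Krt18 at chr15:102027966-102028215 (plus strand) and Krt20 at chr11:99438154-99438403 (minus strand), 5′ to 3′, with matches to the searched motifs in capitals.
Krt8: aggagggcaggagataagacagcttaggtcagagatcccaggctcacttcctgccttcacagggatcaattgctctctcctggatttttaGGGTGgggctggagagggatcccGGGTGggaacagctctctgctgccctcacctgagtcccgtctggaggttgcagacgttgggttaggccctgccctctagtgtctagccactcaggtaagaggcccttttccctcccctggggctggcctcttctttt
Krt18: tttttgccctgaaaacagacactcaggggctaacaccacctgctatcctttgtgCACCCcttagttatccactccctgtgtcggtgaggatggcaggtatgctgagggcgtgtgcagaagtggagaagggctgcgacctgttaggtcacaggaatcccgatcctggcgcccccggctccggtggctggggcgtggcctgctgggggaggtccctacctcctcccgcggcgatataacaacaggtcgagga
Krt20: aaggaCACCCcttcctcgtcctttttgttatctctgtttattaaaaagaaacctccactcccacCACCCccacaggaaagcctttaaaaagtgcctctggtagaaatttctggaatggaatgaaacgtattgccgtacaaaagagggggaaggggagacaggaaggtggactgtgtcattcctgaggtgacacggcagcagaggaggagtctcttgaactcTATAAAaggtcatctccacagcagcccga
The RefSeq and GENCODE starts differ for Krt8 and Krt18, so part of each of these windows lies inside the gene as GENCODE places it. The motifs were searched on both strands. The TATA box was TATAAA, the GC box was searched as GGGCGG, the core of caudal-type factors was taken as TTTATG, the box of Krüppel-like factors was read as CACCC, and the AP-1 site was TGACTCA. Krt20 held TATAAA from -29 to -24, a motif found in 12.4% of 32851 such windows, and CACCC in 2 places. Krt8 held CACCC on the opposite strand in 2 places and Krt18 held it in 1, where 52.0% of all windows hold it. In these 3 windows the GC box, the caudal-type core and the AP-1 site had no match, and 32.7%, 10.8% and 4.46% of all windows hold them. A sequence was listed for 7 of the 8 members, and none for Krt19. Of the windows not shown, that of Krt7 held the GC box in 4 places and that of Krt23 held the caudal-type core in 1. CACCC occurred in 3 places for Krt5 and in 1 each for Krt7 and Krt14, so it was not particular to the windows shown. The windows of Krt7 and Krt14 lie wholly inside the gene as GENCODE places it, and that of Krt23 in part.

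The minor simple keratins were far lower. Krt7, a type II chain better known from ducts and from bladder than from colon, measured 23.0, 13.2 and 12.5 FPKM in DSS+DCA and 25.4, 24.8 and 26.0 FPKM in DSS. The DSS values were close together, and each DSS+DCA value was below them, with replicate 1 close. The log2 change was -0.67 ± 0.25 (SE, adjusted p = 0.265, limma). Krt23, a type I keratin, measured 2.05, 1.23 and 1.21 FPKM in DSS+DCA and 1.69, 1.95 and 2.25 FPKM in DSS. Its groups overlapped, since replicate 1 of DSS+DCA lay within the DSS range (log2 change -0.26 ± 0.19 SE, adjusted p = 0.517, limma).

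The squamous keratins were not tested, because both lay below a mean of 0.5 FPKM. Krt14 was listed at 0.0362, 0.417 and 0.286 FPKM in DSS+DCA and 0.252, 0.258 and 0.479 FPKM in DSS. Krt5 was listed at 0.0281, 0.0297 and 0.0781 FPKM in DSS+DCA and at 0, 0.108 and 0 FPKM in DSS. The steps between low values implied 30900000 to 37100000 counted units per library, possibly single reads of pairs, and 40.1% to 46.0% of low values were whole to within 0.05 units, where chance gives 10%. On that estimate Krt5 rested on 1.93, 2.02 and 6.06 units in DSS+DCA and on 8.77 in DSS replicate 2, so no difference was detectable at this depth. With no filter on low genes limma gave log2 changes of 0.014 for Krt5 and -0.10 for Krt14, with adjusted p-values of 0.883 and 0.738. Together Krt5 and Krt14 made up 0.00171%, 0.0204% and 0.0161% of the FPKM of the 8 keratins in DSS+DCA, against 0.00441%, 0.00818% and 0.00936% in DSS. The difference of the mean shares, 0.00542 percentage points, had an exact permutation p = 0.4 (two-sided, n = 3 each, adjusted 0.6), where 0.1 is the smallest p that 3 libraries against 3 can give.

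Many other markers of squamous epithelium were near 0, while a few were abundant. Of 25 further markers of such epithelium 21 were listed, and 12 of these were below 0.5 FPKM in every library. Trp63, the transcription factor of basal squamous cells, reached at most 0.0550 FPKM in DSS+DCA and 0.0254 FPKM in DSS, and Col17a1, a hemidesmosome collagen, 0.0375 and 0.0341 FPKM. Of the 7 tested, 5 were lower in DSS+DCA and 0 passed, with a median log2 change of -0.57. That median was 0.025 when low genes were kept in, -0.23 after rescaling to nuclear protein-coding genes, -0.96 with a filter of 2 FPKM and -1.15 without DSS+DCA replicate 1. The abundant ones belong to families that the gut also expresses. Sprr2a1, a small proline-rich protein, measured 960 ± 195 FPKM in DSS+DCA and 2063 ± 98.9 FPKM in DSS (adjusted p = 0.110, limma). Its relative Sprr1a had 12.7 ± 5.36 and 43.9 ± 2.12 FPKM in the same order (adjusted p = 0.0659). Sbsn, suprabasin, lay the other way, at 1.77, 1.13 and 1.23 FPKM in DSS+DCA and 0.639, 0.435 and 0.675 FPKM in DSS (adjusted p = 0.179).

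In the whole keratin gene family of 42 listed genes, 34 were not among the 8, and 25 of those 34 were below 0.5 FPKM in every library. Of the 7 tested, 5 were lower and 2 higher in DSS+DCA and 0 passed in limma, with a median log2 change of -0.38 that was 0.013 with no filter. Besides Krt8-ps, those with a mean of at least 1 FPKM in either group were Krt10, Krt12 and Krt17. Krt10, known from the upper layers of skin, measured 1.42, 1.41 and 1.79 FPKM in DSS+DCA and 2.44, 2.13 and 2.37 FPKM in DSS. Krt12, known from the cornea, measured 1.37, 5.26 and 3.36 FPKM in DSS+DCA and 2.12, 1.41 and 2.09 FPKM in DSS. Krt17, a keratin of injured skin, spread from 0.0807 to 3.08 FPKM in DSS+DCA and from 0 to 0.880 FPKM in DSS. Of the rest, the hair keratins Krt36 and Krt87 had the smallest p-values and did not overlap, at 0 to 0.379 and 0.307 to 0.620 FPKM in DSS+DCA, and 0.694 to 1.13 and 0.816 to 0.898 FPKM in DSS (adjusted p = 0.153 and 0.274, limma).

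The counts over the simple keratins were read against all genes. Adjusted p-values called 0 of the 6 tested members in limma, where 0.561% of the 14611 genes were called, 0.431% being lower and 0.13% higher. At an unadjusted p under 0.05, 5 of the 6 were lower in DSS+DCA, against 12.4% of all genes. That 5 depended on scaling and on single libraries. It was 2 after rescaling to nuclear protein-coding genes, where 3872 of 14780 genes passed in either direction. With quantile normalization it was 3, where 2339 of 14611 genes passed in either direction. Without DSS+DCA replicate 1 it was 6, and without any other single library it was 2 or 3. In 4 of the 6 every DSS+DCA library was below every DSS library, against 17.8% of all genes, and in 0 of the 6 was every DSS+DCA library above, against 5.8%. Among the markers described below, every DSS+DCA library was likewise lower for 8 of 16 general epithelial and 11 of 17 surface colonocyte genes. This trait was thus not particular to the keratins. A fitted value below 0 was found for 6 of the 6, against 60.5% of all genes. The median log2 change of the 6 was -0.89, beside -0.09 for all genes tested. Whether members were called depended on DSS+DCA replicate 1. Without it, limma gave Krt7, Krt8, Krt18, Krt19 and Krt20 adjusted p-values of 0.0179, 0.0197, 0.0235, 0.0179 and 0.0171, in a fit that called 8.2% of all genes lower. Without DSS replicate 4, 0 of the 6 passed in limma. Adjusted p-values were then 0.401 for Krt18, 0.426 for Krt19, 0.563 for Krt8, 0.572 for Krt7 and for Krt20, and 0.808 for Krt23. The log2 changes in that fit were -0.94, -1.07, -0.87, -0.65, -0.90 and -0.19 for Krt18, Krt19, Krt8, Krt7, Krt20 and Krt23.

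**Figure D2:**
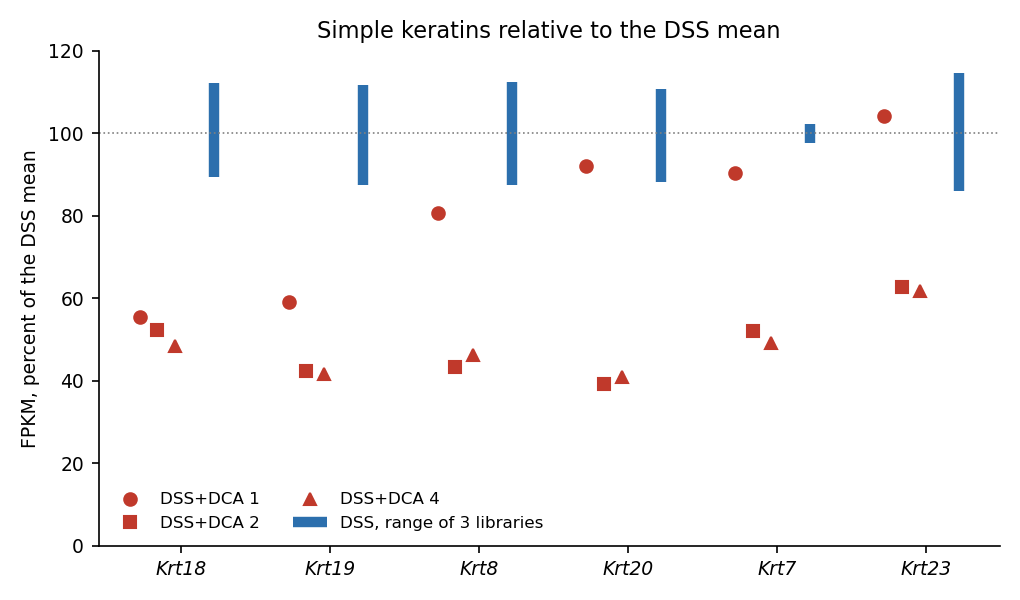
FPKM of each simple keratin in the 3 DSS+DCA libraries (red symbols) as a percent of the DSS mean, with the range of the 3 DSS libraries as a blue bar to the right. Krt18 and Krt19 lie between 41.6% and 59.1% in all 3 DSS+DCA libraries, whereas DSS+DCA replicate 1 lies at 80.7% to 104% for the other 4 keratins.

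Set against the DSS mean, the keratins fell into 2 patterns that differed in DSS+DCA replicate 1. In replicates 1, 2 and 4 of DSS+DCA, Krt18 stood at 55.5%, 52.3% and 48.5% of its DSS mean. Krt19 was similar, at 59.1%, 42.4% and 41.6%. Krt8 stood at 80.7%, 43.3% and 46.2%, and Krt20 at 92.1%, 39.1% and 40.8%. Krt7, at 90.4%, 51.9% and 49.1%, followed Krt8 and Krt20. The difference between the patterns thus rested on 1 library. In that library 16 other epithelial markers were also spread, with 6 at or above their DSS mean, such as the adhesion protein Epcam at 140% and the cadherin Cdh1 at 108%. The other 10 lay below it, such as Lgals4, galectin 4, at 63.4% and the claudin Cldn3 at 65.8%.

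The same library stood apart in ratios between keratins. The ratio of Krt8 to Krt18 was 13.1, 7.45 and 8.58 in DSS+DCA replicates 1, 2 and 4, against 9.03, 8.82 and 9.16 in DSS. Replicate 1 lay above, and the other two below, a narrow DSS range. The difference of the mean log2 ratios was 0.06, with an exact permutation p = 1 (two-sided, n = 3 each). Over the 6 ratios and scores compared, adjusted values were 1 for this ratio and the next, and 0.4 for the last one below. The ratio of Krt20 to Krt19 was 0.555, 0.329 and 0.349 in DSS+DCA and 0.353, 0.359 and 0.357 in DSS (difference of mean log2 ratios 0.17, exact permutation p = 1). Without DSS+DCA replicate 1 these differences became -0.18 and -0.07, with the remaining DSS+DCA values below all DSS values. Krt7 stood at 1.13%, 1.21% and 1.07% of Krt8 in DSS+DCA and at 0.895%, 1.12% and 1.03% in DSS (difference of mean log2 ratios 0.20, exact permutation p = 0.2).

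Summed over the members, type I and type II chains were close to balance in DSS. Type I sums were 1690, 1088 and 1075 FPKM in DSS+DCA replicates 1, 2 and 4, and 2838, 2234 and 2565 FPKM in DSS. Type II sums were 2063, 1107 and 1180 FPKM in DSS+DCA, and 2869, 2237 and 2553 FPKM in DSS. The ratio of type I to type II was 0.819, 0.983 and 0.911 in DSS+DCA, below the 0.989, 0.998 and 1.00 of DSS. Single type I chains did not show this balance, since Krt8 was 8.82 to 9.16 times Krt18 in DSS, and Krt19 carried 32.6% to 32.9% of all keratin FPKM there. With quantile normalization the mean log2 difference of this ratio was 0.42 in place of -0.15, so its direction was not kept under that normalization.

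**Figure D3:**
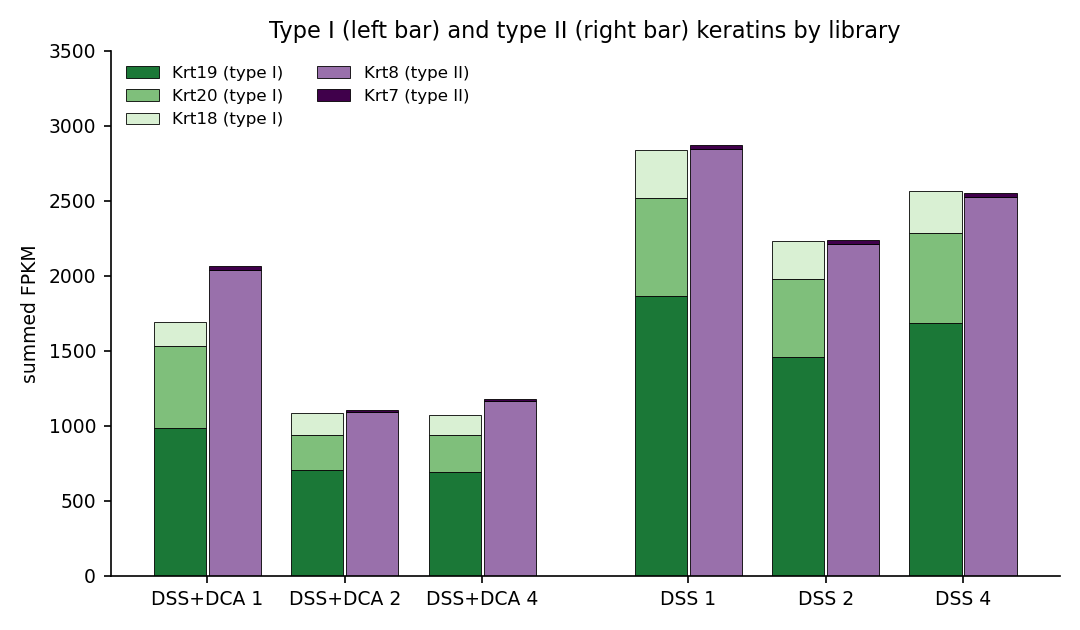
Summed FPKM of type I keratins (left bar of each pair, Krt19, Krt20 and Krt18 from the bottom) and type II keratins (right bar, Krt8 and Krt7) in each library. In DSS the 2 bars of a pair are nearly equal, and in DSS+DCA replicate 1 the type II bar reaches 2063 FPKM against 1690 FPKM for type I.

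The keratins were also set against other transcripts of epithelium in the same library. General epithelial markers without keratins, 16 genes such as the cadherin Cdh17 and the actin-bundling villin Vil1, had 14 lower and 2 higher in DSS+DCA, 0 past the test in limma and a median log2 change of -0.69. That median was -0.24 after rescaling to nuclear protein-coding genes and -0.18 with quantile normalization. St14, the protease matriptase, had the smallest p, at 57.1, 46.3 and 50.4 FPKM in DSS+DCA and 89.6, 85.8 and 92.3 FPKM in DSS (adjusted p = 0.116). The summed level of the 16 was 2337 to 4029 FPKM in DSS+DCA and 4659 to 5269 FPKM in DSS. The mean log2(FPKM + 1) of Krt8, Krt18, Krt19 and Krt20 stood above that of the 16 markers by 2.12, 2.23 and 2.09 log2 units in DSS+DCA replicates 1, 2 and 4, and by 2.60, 2.45 and 2.51 in DSS. The groups did not overlap, and the mean difference between them was -0.38. It ranged from -0.42 to -0.33 when any 1 library was left out, and it was -0.37 after rescaling to protein-coding genes and -0.44 with quantile normalization.

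Taken singly against the same markers, Krt19 was lower in DSS+DCA by the most. It stood above their mean by 2.73, 3.04 and 2.87 log2 units in DSS+DCA, against 3.47, 3.30 and 3.39 in DSS. No library of the groups overlapped, and the difference of -0.51 had an exact permutation p = 0.1, the smallest possible, or 0.2 adjusted over 6 keratins. Krt8 also did not overlap, at 3.78, 3.66 and 3.62 in DSS+DCA and 4.08, 3.90 and 3.97 in DSS (difference -0.30, exact permutation p = 0.1, adjusted 0.2). Krt18 and Krt20 overlapped, with differences of -0.36 and -0.34 (exact permutation p = 0.2, adjusted 0.24, for each). In DSS+DCA replicates 1, 2 and 4 Krt18 stood at 0.078, 0.774 and 0.525 (SD 0.353, the widest of the 6). Its DSS values were 0.907, 0.769 and 0.779. Krt7 also overlapped and differed by the least, -0.096 (exact permutation p = 0.4, adjusted 0.4). For Krt23, at 1.21 to 2.05 FPKM in DSS+DCA and 1.69 to 2.25 FPKM in DSS, this score depended on the pseudocount. The difference was 0.31 with a pseudocount of 1 (exact permutation p = 0.1, adjusted 0.2), with no overlap of the groups, and 0.18 with a pseudocount of 0.1 (exact permutation p = 0.5), where they overlapped.

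**Figure D4:**
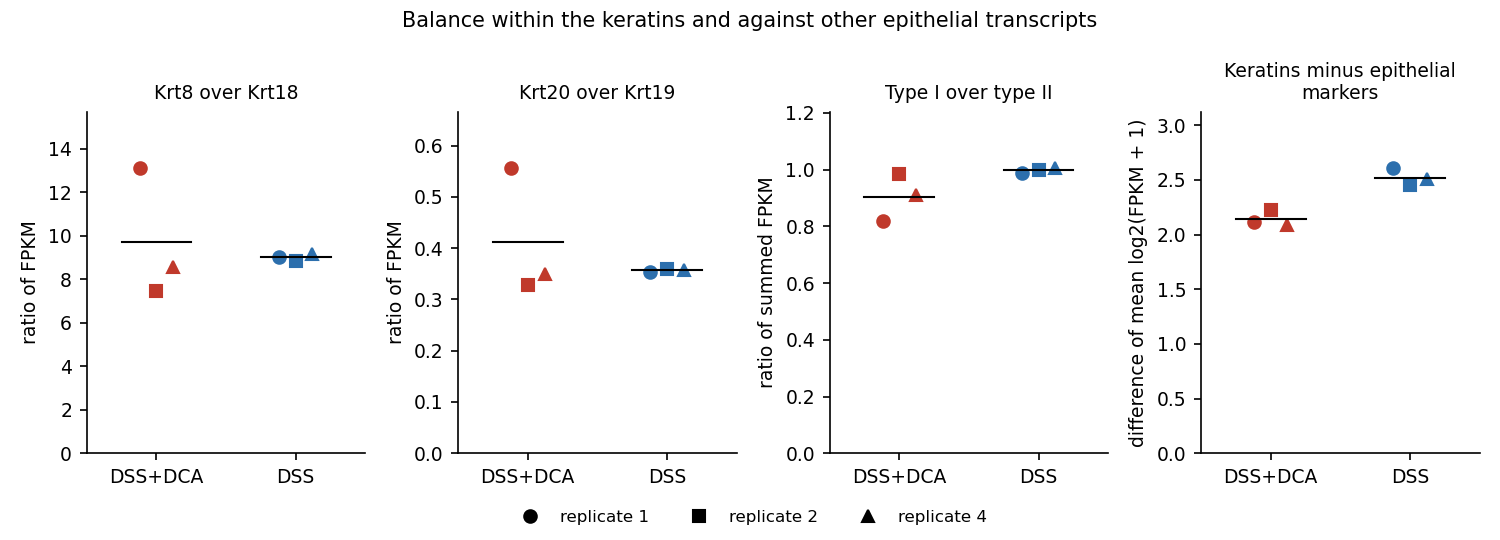
Ratios of FPKM between keratins and, in the right panel, the mean log2(FPKM + 1) of Krt8, Krt18, Krt19 and Krt20 minus that of 16 other epithelial markers. Each point is a library, black lines are group means, and DSS+DCA (red) stands left of DSS (blue). The first 2 panels show DSS+DCA replicate 1 apart from the rest at 13.1 and 0.555, and the right panel shows 2.09 to 2.23 in DSS+DCA and 2.45 to 2.60 in DSS.

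As a share of the FPKM of protein-coding genes outside the mitochondrial genome, the 8 keratins made up 1.66%, 1.55% and 1.43% in DSS+DCA replicates 1, 2 and 4, against 2.5%, 1.88% and 2.17% in DSS. Each DSS+DCA library was again below each DSS library. On this scale the log2 changes of Krt8, Krt18, Krt19 and Krt20 were -0.42, -0.48, -0.63 and -0.47, and that of all genes had a median of 0.23. The adjusted p-values of the 4 lay between 0.113 and 0.230 in limma, in a fit that called 0.304% of all genes lower.

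Proteins that anchor keratin filaments to desmosomes and other junctions had 19 of 22 tested genes lower, 0 past the test in limma and a median log2 change of -0.36, which turned to 0.052 after rescaling to protein-coding genes. Plec, the plectin linker between filaments and membrane plaques, measured 18.8, 17.9 and 19.5 FPKM in DSS+DCA and 34.8, 26.8 and 30.0 FPKM in DSS (adjusted p = 0.157). The groups did not overlap. Krtcap2, a subunit of the oligosaccharyltransferase that carries keratinocyte in its name, measured 18.3, 13.6 and 15.4 FPKM in DSS+DCA and 37.6, 46.4 and 31.7 FPKM in DSS (adjusted p = 0.0678). Pof1b, a junction protein that binds actin, had 12.9 ± 4.39 FPKM in DSS+DCA and 21.9 ± 0.720 FPKM in DSS (adjusted p = 0.221). The desmosomal plaque protein Dsp, to which keratins attach, had 21.1 ± 7.90 FPKM in DSS+DCA and 20.7 ± 4.95 FPKM in DSS, so members of the list differed in size of difference.

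Transcription factors of gut and stratified epithelium had 15 of 17 tested genes lower, 0 past the test in limma and a median log2 change of -0.37, which turned to 0.050 after the same rescaling. Cdx1, a caudal-type factor of intestinal identity, measured 124 ± 29.5 FPKM in DSS+DCA and 219 ± 11.1 FPKM in DSS (adjusted p = 0.162). Its relative Cdx2 measured 134 ± 45.9 and 124 ± 4.60 FPKM in the same order. Ehf, an epithelial Ets factor, had 21.0 ± 4.50 FPKM in DSS+DCA and 38.04 ± 4.05 FPKM in DSS (adjusted p = 0.142). Gata4, a factor of the proximal intestine, was listed at 0.0491, 0.107 and 0.0973 FPKM in DSS+DCA and 1.74, 1.03 and 1.12 FPKM in DSS (adjusted p = 0.0529).

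Markers of the crypt surface and base were also listed, though bulk values do not give the position of cells. As for the keratins, fewer cells and less RNA per cell cannot be told apart. Surface colonocyte markers had 16 of 17 genes lower with a median log2 change of -1.06 (-0.62 after rescaling to nuclear protein-coding genes), and their summed level was 2704 to 7572 FPKM in DSS+DCA and 10144 to 11018 FPKM in DSS. The member that passed was the alkaline phosphatase Alpi, which fell to 16.0 ± 3.29 FPKM in DSS+DCA, against 42.2 ± 1.79 FPKM in DSS (adjusted p = 0.0486, limma). That call was lost without DSS replicate 1 or 4, where 0 genes of the whole table passed in limma and 1498 and 1407 had an unadjusted p under 0.05. Crypt base and proliferation markers had 3 of 10 tested genes lower and 7 higher, with 0 past the test. Their median log2 change was 0.06. It was -0.20 without DSS+DCA replicate 1 and 0.38 after rescaling to nuclear protein-coding genes.

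Markers of other cells also differed between libraries, and their part in the keratin values was not tested. Smooth muscle markers summed to 1981, 124.8 and 1351 FPKM in the DSS+DCA libraries, and to 58.7, 850 and 436 FPKM in DSS, and 11 of 11 were higher on the fitted scale with 0 past the test. Enteric neuron and glia markers summed to 4.75 to 70.9 FPKM in DSS+DCA and 2.43 to 14.4 FPKM in DSS, with 8 of 8 higher and 0 past the test. Immune cell markers summed to 67.9 to 109 FPKM in DSS+DCA and 38.4 to 44.6 FPKM in DSS, with 6 of 8 tested genes higher and 0 past the test. Lyz2 was higher in DSS+DCA replicates 1, 2 and 4, at 32.2, 21.2 and 37.9 FPKM, against 15.9 to 16.8 FPKM in DSS (adjusted p = 0.177, limma). Other genes of the list differed between the DSS+DCA libraries. Ly6g, a neutrophil antigen, had 15.7, 72.3 and 1.79 FPKM in DSS+DCA replicates 1, 2 and 4 and 13.7 to 18.6 FPKM in DSS. It thus held 72.3 of the 109 FPKM summed in DSS+DCA replicate 2. S100a8 and S100a9 of the same list did not share its low replicate 4. They had 0.311, 4.83 and 1.97 FPKM, and 3.10, 6.25 and 3.37 FPKM, in DSS+DCA. In DSS they had 0.613 to 2.77 and 1.40 to 7.51 FPKM. Cd79a, of the B cell receptor, had 15.0, 0.737 and 13.3 FPKM in DSS+DCA and 0.596 to 1.01 FPKM in DSS. Fibroblast markers summed to 20.8 to 49.7 FPKM in DSS+DCA and 20.0 to 42.9 FPKM in DSS. Of 8 tested, 5 were lower and 3 higher in DSS+DCA, with a median log2 change of -0.20. The 1 that passed was the proteoglycan Dcn, higher at 4.50 ± 0.609 FPKM in DSS+DCA, against 1.2 ± 0.410 FPKM in DSS (adjusted p = 0.0486, limma). That call was likewise lost without DSS replicate 1 or 4. Endothelial markers summed to 1.79 to 4.65 FPKM in DSS+DCA and 2.26 to 2.72 FPKM in DSS, with 2 of 2 tested genes higher and 0 past the test. Markers of mesothelium, the simple epithelium that lines the outer gut wall, summed to 1.51 to 1.96 FPKM in DSS+DCA and 1.10 to 1.40 FPKM in DSS, and 7 of the 8 listed, mesothelin (Msln) and Upk3b among them, were below 0.5 FPKM in every library.

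Over the 6 libraries the simple keratins varied together, as a description over points that share library and scaling. Pearson correlations of log2(FPKM + 1) were 0.99 for Krt8 with Krt20, 0.98 for Krt18 with Krt19, 0.98 for Krt7 with Krt8 and 0.81 for Krt18 with Krt20. Krt23 was the least alike, with 0.61 against Krt18. Among 3315 other genes averaging 10 FPKM or more, those most like Krt8 were Tmem50b, Rnh1 and Ifit1bl1 (r from 0.998 to 1.00). The genes most like Krt20 were Zdhhc5, Lrrc75a and Znfx1 (r of 0.999), and those most like Krt7 were Slc35c1, Hmgcs1 and Rps7 (r from 0.997 to 0.998). For Krt18 they were Tnks1bp1, Gne and Ttc4 (r from 0.995 to 0.997), for Krt19 Baiap2l1, Fam3b and C1galt1 (r from 0.995 to 0.997), and for Krt23 Nelfe, Mrpl55 and Tmem238l (r from 0.983 to 0.991). These values describe 6 points and carry no p.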

How the data were processed

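Per the labels' protocols, colonic RNA was extracted with Trizol, selected with oligo(dT) and copied with a dUTP-marked second strand. The submitters' processing notes list StringTie 2.1.6, HISAT2 2.2.1, cutadapt 1.9, edgeR and DESeq2, with no role for each. Neither the genome build nor strand-aware counting is stated. Each library has a deposited FPKM value per gene, per the file headers. The authors' fold is a ratio of DSS+DCA over DSS, deposited also as its log2. P-values and q-values were deposited by the authors with no named test.

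Here log2(FPKM + 1) of the 14611 genes averaging at least 0.5 FPKM was tested with limma 3.58.1 in R 4.3.3 (trended eBayes, two-sided, no covariates, Benjamini-Hochberg adjustment over all of them, calls at an adjusted p under 0.05). Changes on this scale are understated for low genes. Folds are ratios of mean FPKM. Within-library ratios were compared with exact permutation tests. Whole reads were not recovered, so no count test was run. The code was tested on simulated data.

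Members and lists were chosen with earlier results of these data known. Named were all members, other keratins of at least 1 FPKM in a group, called genes or up to 3 of smallest p in the lists described, and the 3 genes most like each simple keratin. Trp63, Col17a1, Dsp, Cdx2, Epcam, Cdh1, Cdh17, Msln, Upk3b, Lgals4, Cldn3, Ly6g, S100a8, S100a9, Des and Lmna were added after their values were seen. For lists of other cell types sums stand in for most single genes. Alternatives were other filters (none, or 2 FPKM), a smaller pseudocount (0.1), TMM-style, quantile and protein-coding scaling, a replicate block, a threshold of 0.1 and each library left out. A pseudocount of 0.1 for single keratins against epithelial markers was chosen after seeing the data.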

Additional observations from a re-analysis of the deposited data

How the results depend on the processing

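The 6 tested keratins had a negative log2 change under each alternative that tested them, except Krt23, at 0.013 after rescaling to protein-coding genes outside the mitochondrial genome. The number of keratins called ranged from 0 to 5 over the fits that left out 1 library, the 5 being without DSS+DCA replicate 1. Over all genes, limma called 82 (19 higher and 63 lower), 2 with no filter, 137 with TMM-style scaling (38 higher and 99 lower), 230 at an adjusted p under 0.1, and from 0 (without DSS replicate 1 or 4) to 1321 (without DSS+DCA replicate 1) when a library was left out. Where 0 genes were called, 1498 and 1407 had an unadjusted p under 0.05. Rescaling to protein-coding genes called 78 higher and 45 lower, and quantile normalization 29 higher and 63 lower. Relative to the median of all genes, the median of the simple keratins was -0.80, and -0.75, -0.68 and -0.35 with TMM-style, protein-coding and quantile scaling. With the replicate block 1 gene and 0 keratins were called, and deviations of same-numbered libraries correlated at -0.14, -0.17 and 0.015, so the numbers were not read as pairs.

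With quantile normalization the difference of the mean log2 ratio was -0.53 for Krt8 to Krt18, 0.50 for Krt7 to Krt8 and 0.42 for type I to type II, and the cause was not tested. Leaving out 1 library, the differences ranged from -0.18 to 0.23 for Krt8 to Krt18, from -0.071 to 0.31 for Krt20 to Krt19, from 0.11 to 0.28 for Krt7 to Krt8, from -0.21 to -0.076 for type I to type II, and from 0.00161 to 0.0109 percentage points for the squamous share. With 3 libraries a group, and a DSS replicate 4 close to the mean of the others, the spread of DSS may be understated. Krt5 rested on an estimated 8.77 counted units or fewer in each library.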

Other observations

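Intermediate filament genes besides the keratins, which include the lamins found in the nucleus of nearly every cell, were listed for 15 members. Of 11 tested, 8 were higher and 3 lower in DSS+DCA, with 0 past the test in limma and a median log2 change of 0.68. Des, the desmin of muscle, had 173, 12.4 and 144 FPKM in the DSS+DCA libraries and 4.96, 101 and 49.97 FPKM in the DSS libraries, so both groups held high and low libraries. Vim, the vimentin of mesenchymal cells, measured 13.2, 6.52 and 18.3 FPKM in DSS+DCA and 4.99, 8.83 and 6.07 FPKM in DSS (adjusted p = 0.347). Gfap, the filament of enteric glia, measured 5.21, 0.957 and 6.85 FPKM in DSS+DCA and 0.165, 1.45 and 0.564 FPKM in DSS (adjusted p = 0.259), and Ina, a filament of neurons, averaged 0.904 ± 0.783 FPKM in DSS+DCA and 0.144 ± 0.139 FPKM in DSS (adjusted p = 0.352). The lamin gene Lmna had 30.2, 14.2 and 22.0 FPKM in DSS+DCA and 28.3, 33.5 and 29.6 FPKM in DSS. The median of the list was 0.099 without DSS+DCA replicate 1 and 1.15 without DSS+DCA replicate 2.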
